A study of Mus musculus with 6 samples.

Results

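The genes described are 39 collagens, basement membrane proteins and stromal matrix proteins of the mouse, taken by name from a list. That list was chosen with earlier results of these data known. Of the 39, 37 had a probe set that the deposited calls gave as Present on at least 3 of 6 arrays, out of 11899 genes tested in all and 18096 named genes on the array. They divide into 6 fibrillar collagens, 6 fibril-associated and beaded-filament collagens, 11 basement membrane genes, 1 transmembrane collagen (Col23a1), 4 small leucine-rich proteoglycans, 10 elastic fibre and matrix glycoproteins, and the fibroblast receptor Pdgfra. The brightest probe set that passed stood for its gene. Conjunctival epithelium was cut by laser from frozen, stained 6 µm sections of whole eyes with lids, and its total RNA was hybridised to Affymetrix expression arrays. Arrays were made from 3 samples of Spdef -/- mice and 3 samples of Spdef +/+ mice. Both genotypes were on a C57BL/6 strain and 8 weeks of age, and a sample joined the tissue of 1 eye from a male with that of 1 eye from a female. The captured region was the deepest 40% of the epithelium, counted from the fornix. How the Spdef allele was made, and in which cells it is lost, cannot be read from the sources used here.

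Fibroblasts of connective tissue secrete the fibrillar collagens, which assemble into fibres that fibril-associated collagens, beaded type VI filaments and small leucine-rich proteoglycans bind and space. The basement membrane under an epithelium is a sheet of type IV collagen and laminin networks joined by nidogens, and epithelial cells as well as stromal cells contribute to it. In the conjunctiva a stratified epithelium with mucus-secreting goblet cells rests on that sheet, over a stroma of fibroblasts, vessels and nerves. SPDEF is a transcription factor of the ETS family that goblet cells need in order to differentiate.

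The type IV collagen genes lie in head-to-head pairs, and the 4 promoters of the pairs measured here are printed because both members of each pair were lower in Spdef -/- samples. The promoters of Col1a2 (a fibrillar collagen) and Col23a1 (the transmembrane collagen) are printed beside them as examples of a called gene of 2 other collagen classes. Sequences are RefSeq windows of 300 bases on GRCm38.p6, from 250 bases before to 50 after the start site, written 5′ to 3′ on the gene's strand. Capitals mark a CCAAT box (CCAAT, or ATTGG on the other strand) or a GC box (GGGCGG, or CCGCCC on the other strand).
Col4a1 chr8:11312777-11313076, minus strand: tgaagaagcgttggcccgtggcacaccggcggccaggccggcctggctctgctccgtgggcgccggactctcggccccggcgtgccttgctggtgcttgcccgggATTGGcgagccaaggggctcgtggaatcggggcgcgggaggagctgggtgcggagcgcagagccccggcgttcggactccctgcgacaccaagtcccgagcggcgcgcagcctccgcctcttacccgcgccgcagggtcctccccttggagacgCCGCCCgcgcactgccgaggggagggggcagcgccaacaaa
Col4a2 chr8:11312555-11312854, plus strand: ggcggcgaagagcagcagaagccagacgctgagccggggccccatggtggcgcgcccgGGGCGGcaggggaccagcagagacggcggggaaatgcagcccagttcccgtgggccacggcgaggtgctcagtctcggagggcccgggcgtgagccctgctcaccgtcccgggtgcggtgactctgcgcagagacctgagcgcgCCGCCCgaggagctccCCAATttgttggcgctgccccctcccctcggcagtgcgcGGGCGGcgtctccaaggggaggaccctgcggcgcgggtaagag
Col4a5 chrX:141475169-141475468, plus strand: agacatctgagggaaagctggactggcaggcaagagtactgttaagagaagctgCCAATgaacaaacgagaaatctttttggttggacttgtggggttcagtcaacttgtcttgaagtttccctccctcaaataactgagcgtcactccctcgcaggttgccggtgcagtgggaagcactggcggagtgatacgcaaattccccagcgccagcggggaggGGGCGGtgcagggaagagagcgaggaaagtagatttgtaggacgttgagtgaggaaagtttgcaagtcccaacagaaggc
Col4a6 chrX:141474027-141474326, minus strand: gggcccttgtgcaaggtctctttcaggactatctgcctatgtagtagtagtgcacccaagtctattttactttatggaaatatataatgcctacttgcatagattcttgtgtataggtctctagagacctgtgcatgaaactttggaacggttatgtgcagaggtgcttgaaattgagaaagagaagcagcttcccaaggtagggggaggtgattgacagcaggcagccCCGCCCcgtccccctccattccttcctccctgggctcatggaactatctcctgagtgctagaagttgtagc
Col1a2 chr6:4505368-4505667, plus strand: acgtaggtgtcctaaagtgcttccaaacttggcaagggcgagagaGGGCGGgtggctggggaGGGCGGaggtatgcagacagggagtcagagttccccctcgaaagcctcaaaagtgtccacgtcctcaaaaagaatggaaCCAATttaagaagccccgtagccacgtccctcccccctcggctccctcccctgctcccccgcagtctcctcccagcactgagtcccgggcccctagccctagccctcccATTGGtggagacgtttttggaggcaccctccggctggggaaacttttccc
Col23a1 chr11:51289670-51289969, plus strand: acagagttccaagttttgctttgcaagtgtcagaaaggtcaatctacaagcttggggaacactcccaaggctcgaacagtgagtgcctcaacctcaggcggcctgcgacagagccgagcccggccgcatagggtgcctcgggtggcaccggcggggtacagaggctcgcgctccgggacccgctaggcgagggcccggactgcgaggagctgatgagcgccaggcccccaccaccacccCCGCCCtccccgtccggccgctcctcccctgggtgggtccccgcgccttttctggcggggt

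The start sites of Col4a1 and Col4a2 are 21 bases apart, and their windows share 78 bases. Those of Col4a5 and Col4a6 are 1343 bases apart and share none. All 6 windows hold a GC box, and those of Col4a1, Col4a2, Col4a5 and Col1a2 hold a CCAAT box. The promoter table held 26 of the 39 genes, with 30 windows. A GC box stood in 18 of these 30 windows (60.0%), against 35.7% of all 32851 promoter windows of the same length. A CCAAT box stood in 10 (33.3%), against 37.4% of all windows, and TATAAA on either strand in 4 (13.3%), against 13.6%. The ETS core letters CCGGAA and CCGGAT, searched on both strands, each occurred in 1 window (3.33%), against 14.9% and 6.04% of all windows. None of the 6 printed windows holds either. These matches describe the letters and were not tested. The ETS cores CCGGAA and CCGGAT share their first 5 letters.

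The genotype labels were checked first. The Spdef probe set gave signals of 1, 3.62 and 2.94, called Absent, in Spdef -/- samples, against 801, 689 and 587 in Spdef +/+ samples. Spdef was at least 248-fold lower in Spdef -/- samples (limma adjusted p = 0.000152). All 12 epithelial markers were Present on at least 3 arrays, and so were all 20 fibroblast markers outside the matrix list. Present probe sets numbered 23290 to 23370 on the Spdef -/- arrays and 24589 to 24833 on the Spdef +/+ arrays. The exact permutation test of these counts gave p = 0.1, the smallest that 3 against 3 arrays allow. Across the 11899 genes tested, Pearson's r of the log2 signals was 0.98 to 0.99 between arrays of 1 genotype and 0.914 to 0.934 between genotypes.

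For the matrix genes, Spdef +/+ replicate 3 stood apart from the other Spdef +/+ arrays. Its signal was the highest of all 6 arrays for 31 of the 37 tested matrix genes (83.8%), against a background of 16.5% of all genes tested. The median matrix gene was 0.53 higher on the log2 scale in this sample than in the mean of the other two Spdef +/+ samples, against -0.03 over all genes. Summed signals of the 37 genes were 33992, 36896 and 32841 on the Spdef -/- arrays, against 50591, 58297 and 77767 on the Spdef +/+ arrays. Calls, medians and log2 differences of the matrix genes were therefore also computed without Spdef +/+ replicate 3. For the other lists the calls were computed without it, and the list medians were not.

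In Spdef -/- samples 23 of the 37 tested matrix genes were lower than in Spdef +/+ samples (62.2%, limma, adjusted p under 0.05), against a background of 24.0% of all genes called lower. No matrix gene was called higher, against a background of 15.8%. Because the list was chosen with earlier results of these data known, these shares describe it and do not test it. At an unadjusted p under 0.05, 28 were lower and 0 higher, and the share of all genes at that threshold was not computed. The median log2 difference was -0.81 over the matrix genes and -0.06 over all genes tested, and 35 of 37 differences were negative (94.6%), against 56.2% of all genes. For 28 genes every Spdef -/- array lay below every Spdef +/+ array (75.7%), against a background of 32.7%. Without Spdef +/+ replicate 3, 21 were lower (56.8%), against 20.0% of all genes, and 0 were higher, against 12.6%. All 21 were among the 23. The median without that array was -0.56 over the matrix genes, against -0.07 over all genes. In tissue taken in bulk, fewer cells of a type and less RNA per cell cannot be told apart. A different share of stroma cut along with the epithelium cannot be told apart from these either, and was not tested.

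**Figure D1:**
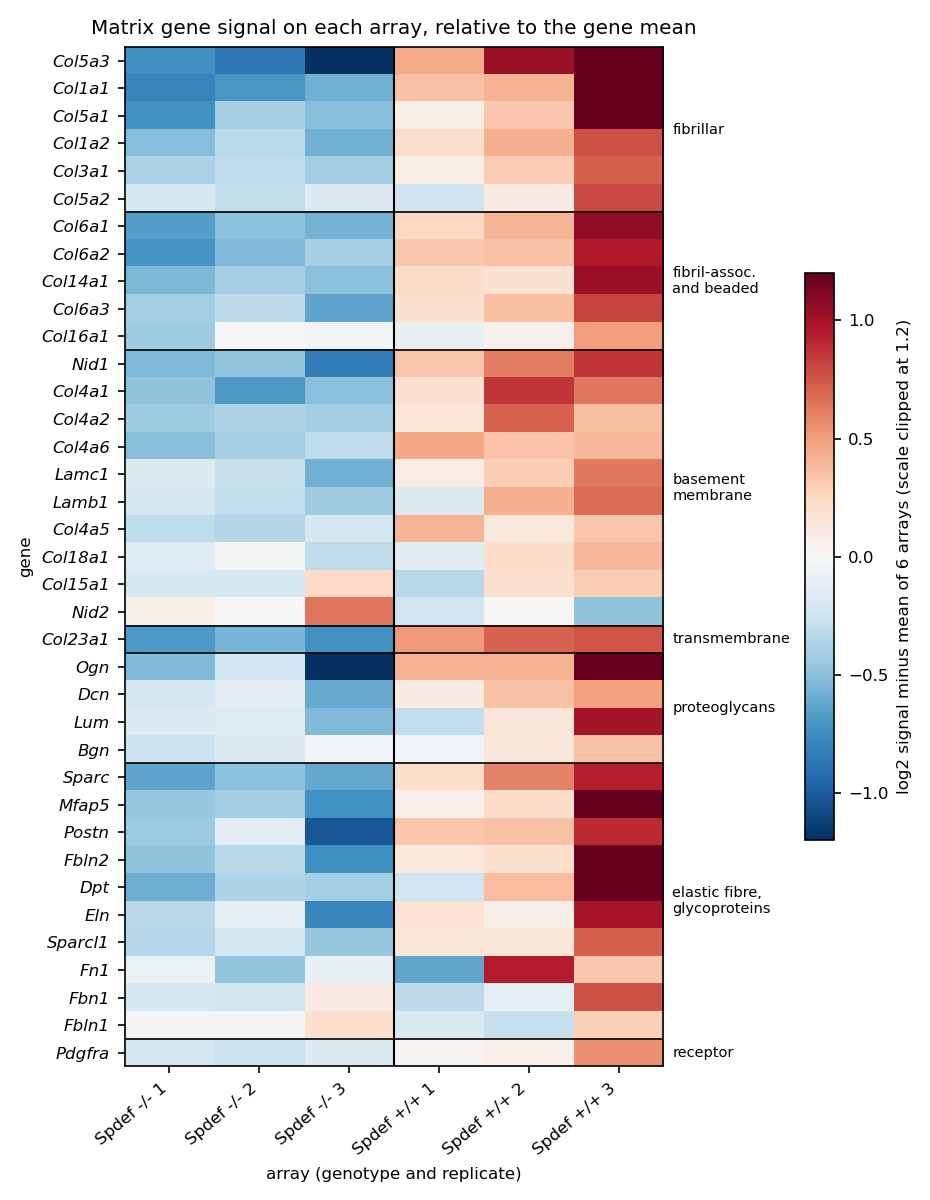
Log2 signal of each of the 37 tested matrix genes (rows, by class) on each of the 6 arrays (columns, Spdef -/- left of Spdef +/+), minus the gene's mean over the arrays, with colours clipped at 1.2. Blue fills most Spdef -/- cells, and the Spdef +/+ replicate 3 column is the darkest red, being the highest of 6 arrays for 31 genes.

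Of the 23 genes, 15 were lower in the fit of all arrays and in each fit that left out 1 array. They are Col1a1, Col1a2, Col3a1, Col5a3, Col6a1, Col6a2, Col6a3, Col4a1, Col4a2, Col4a5, Col4a6, Nid1, Col23a1, Ogn and Sparc. All but Nid1, Ogn and Sparc are collagens. The share of all genes tested that kept a lower call in every such fit was not computed. Leaving out 1 array gave 18 to 27 lower matrix genes and medians of -0.94 to -0.56, and the weaker end of the medians came from leaving out Spdef +/+ replicate 3.

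The fibrillar collagens were lower in 5 of 6 cases, with a median log2 difference of -1.01 with all arrays and -0.76 without Spdef +/+ replicate 3. Col1a1, the main chain of type I collagen, gave signals of 1041, 1123 and 1216 in Spdef -/- samples, against 2322, 2421 and 4522 in Spdef +/+ samples. The groups did not overlap, and the highest Spdef +/+ value stood well above the other two. Col1a1 averaged 1127 ± 87.4 in Spdef -/- samples and 3089 ± 1243 in Spdef +/+ samples (SD, n = 3 each), 2.62-fold lower (95% interval 1.71 to 4.01, adjusted p = 0.00712). Its log2 difference was -1.39, and -1.08 without Spdef +/+ replicate 3 (adjusted p = 0.00289).

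Col1a2, the partner chain of Col1a1, gave 5445, 6224 and 5219 in Spdef -/- samples, against 8980, 10445 and 13302 in Spdef +/+ samples. Again the genotypes were apart on every array. It was 1.92-fold lower (95% interval 1.48 to 2.49, adjusted p = 0.00497), with a log2 difference of -0.94, and -0.79 without Spdef +/+ replicate 3 (adjusted p = 0.00923). Col3a1, which forms type III collagen in the same fibres, gave 5916, 6229 and 5738 in Spdef -/- samples, against 8123, 9507 and 12625 in Spdef +/+ samples. The Spdef -/- values of Col3a1 were close together and all below the Spdef +/+ values. Col3a1 was 1.66-fold lower (95% interval 1.27 to 2.18, adjusted p = 0.0134), with a log2 difference of -0.74, and -0.56 without Spdef +/+ replicate 3 (adjusted p = 0.0153).

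The 3 chains of type V collagen, which regulates the width of type I fibrils, differed among themselves. Col5a3 gave 27.1, 24.8 and 19.1 in Spdef -/- samples, where 2 of 3 arrays called it Present, against 61.4, 92.5 and 115 in Spdef +/+ samples. Its groups did not overlap, and its log2 difference of -1.89 was the lowest of the 37 (3.70-fold lower, 95% interval 2.45 to 5.59, adjusted p = 0.0021). Without Spdef +/+ replicate 3 the log2 difference of Col5a3 was -1.68 (adjusted p = 0.00696). Col5a1 gave 265, 332 and 308 in Spdef -/- samples, against 459, 547 and 1041 in Spdef +/+ samples, with no overlap and with Spdef +/+ replicate 3 far above the rest. It was 2.13-fold lower (95% interval 1.30 to 3.49, adjusted p = 0.0282). That call was lost when any 1 of the 3 Spdef -/- arrays (adjusted p = 0.0805, 0.0535 and 0.0601 for replicates 1, 2 and 3) or Spdef +/+ replicate 2 (0.0506) was left out, and held without Spdef +/+ replicate 3 (log2 -0.74, adjusted p = 0.0157). Col5a2 was not called. It gave 487, 455 and 497 in Spdef -/- samples, against 468, 595 and 964 in Spdef +/+ samples, so the groups overlapped (log2 -0.43, 95% interval -1.03 to 0.17, adjusted p = 0.217).

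Type VI collagen forms beaded filaments near cells from 3 chains, and all 3 were lower. Col6a1 gave 845, 951 and 899 in Spdef -/- samples, against 1591, 1769 and 2785 in Spdef +/+ samples. Col6a2 gave 1063, 1203 and 1313 in Spdef -/- samples, against 2171, 2219 and 3368 in Spdef +/+ samples. Col6a3 gave 349, 374 and 298 in Spdef -/- samples, against 528, 595 and 811 in Spdef +/+ samples. For each chain the genotypes were apart on every array, with Spdef +/+ replicate 3 the highest. Col6a1 was 2.21-fold lower (adjusted p = 0.00669), Col6a2 2.13-fold lower (adjusted p = 0.00549) and Col6a3 1.87-fold lower (adjusted p = 0.00854). Their log2 differences without Spdef +/+ replicate 3 were -0.90, -0.89 and -0.73, all called. The Col6a3 probe set carries several gene IDs in the deposited table, of which 1 is in the gene table used.

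Of the fibril-associated collagens, Col14a1 gave 392, 431 and 404 in Spdef -/- samples, against 665, 644 and 1163 in Spdef +/+ samples. The groups were separate, and Col14a1 was 1.94-fold lower (95% interval 1.33 to 2.83, adjusted p = 0.0179). Without Spdef -/- replicate 1 the Col14a1 call was lost (adjusted p = 0.0528), and without Spdef +/+ replicate 3 it held (log2 -0.68, adjusted p = 0.00581). Col16a1 gave 205, 276 and 269 in Spdef -/- samples, against 259, 285 and 391 in Spdef +/+ samples, overlapping, and was not called (log2 -0.31, 95% interval -0.76 to 0.15, adjusted p = 0.24). Col12a1 was Absent on all 6 arrays by both of its probe sets and was not tested.

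Of the 10 tested basement membrane genes 6 were lower, with a median log2 difference of -0.65, and -0.54 without Spdef +/+ replicate 3, where the same count of 6 was lower. Here Spdef +/+ replicate 3 was the highest of the 6 arrays for 5 of the 10 genes, and its median excess over the other Spdef +/+ samples was 0.23 on the log2 scale, against 0.74 for the fibrillar collagens. Col4a1, which with Col4a2 makes the common type IV network, gave 263, 228 and 261 in Spdef -/- samples, against 421, 667 and 571 in Spdef +/+ samples. Col4a2 gave 266, 278 and 269 in Spdef -/- samples, against 396, 585 and 461 in Spdef +/+ samples. In both genes of this pair the Spdef -/- values lay close together below all Spdef +/+ values, and Spdef +/+ replicate 2, not 3, was the highest. Col4a1 was 2.17-fold lower (95% interval 1.62 to 2.90, adjusted p = 0.00393) and Col4a2 1.75-fold lower (95% interval 1.37 to 2.23, adjusted p = 0.00648). Without Spdef +/+ replicate 3 their log2 differences were -1.08 and -0.83, close to the -1.12 and -0.81 with all arrays.

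The other pair, Col4a5 and Col4a6, encodes chains of epithelial basement membranes. Col4a5 gave 598, 580 and 641 in Spdef -/- samples, against 980, 806 and 934 in Spdef +/+ samples. Col4a6 gave 242, 262 and 280 in Spdef -/- samples, against 475, 438 and 456 in Spdef +/+ samples. The 2 genotypes were apart for both, with a narrow spread inside each genotype. Col4a5 was 1.49-fold lower (95% interval 1.26 to 1.76, adjusted p = 0.00567) and Col4a6 1.75-fold lower (95% interval 1.52 to 2.02, adjusted p = 0.00107). Spdef +/+ replicate 3 exceeded the mean of the other Spdef +/+ samples by 0.07 for Col4a5 on the log2 scale and lay level with it for Col4a6. Without that array their log2 differences were -0.55 and -0.81, both called.

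Nid1, which links laminin to type IV collagen, gave 419, 438 and 340 in Spdef -/- samples, against 761, 923 and 1096 in Spdef +/+ samples. With no overlap, Nid1 was 2.31-fold lower (95% interval 1.77 to 3.03, adjusted p = 0.00228), with a log2 difference of -1.21, and -1.08 without Spdef +/+ replicate 3 (adjusted p = 0.00752). Its homologue Nid2, called Present on 2 arrays of each genotype, gave 39.2, 37.1 and 58.3 in Spdef -/- samples, against 31.9, 37.4 and 26.7 in Spdef +/+ samples. Nid2 overlapped between genotypes and was not called, with the only positive difference of its class (log2 0.47, 95% interval -0.02 to 0.96, adjusted p = 0.113).

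The laminin chains gave mixed calls. Lamc1, the common gamma chain, gave 309, 288 and 233 in Spdef -/- samples, against 370, 426 and 537 in Spdef +/+ samples, and was 1.6-fold lower (adjusted p = 0.0212). Its call was lost without Spdef +/+ replicate 2 (adjusted p = 0.0539) and held without replicate 3 (log2 -0.53, adjusted p = 0.0486). Lamb1, a beta chain, gave 111, 104 and 95 in Spdef -/- samples, against 114, 172 and 204 in Spdef +/+ samples. Although the Lamb1 groups did not overlap, the gene was not called (log2 -0.63, 95% interval -1.13 to -0.12, adjusted p = 0.0542), and it was called without Spdef +/+ replicate 1 (adjusted p = 0.0087). Lama4, an alpha chain of vessel and stromal laminins, was Absent on all Spdef -/- arrays and Present on 2 Spdef +/+ arrays, too few for the test. Its signals were 68.8, 38.0 and 46.0 in Spdef -/- samples, against 92.7, 119 and 142 in Spdef +/+ samples.

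Col15a1 and Col18a1, the collagens whose cleaved ends restrain vessel growth, were not called. Col15a1 gave 102, 102 and 138 in Spdef -/- samples, against 92.9, 133 and 143 in Spdef +/+ samples. Its log2 difference was -0.10 (95% interval -0.58 to 0.38, adjusted p = 0.718), and 0.02 without Spdef +/+ replicate 3. Col18a1 gave 179, 197 and 161 in Spdef -/- samples, against 180, 232 and 263 in Spdef +/+ samples, and the groups overlapped (log2 -0.32, 95% interval -0.69 to 0.06, adjusted p = 0.152). Its second tested probe set differed by -0.69 and passed when probe sets were tested singly, and its first passed without Spdef +/+ replicate 1 (adjusted p = 0.0474).

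Col23a1, a collagen that spans the cell membrane, had the smallest p of the 37 genes. It gave 392, 428 and 381 in Spdef -/- samples, against 899, 1028 and 1065 in Spdef +/+ samples. The gap between the genotypes was far wider than the spread inside either. Col23a1 averaged 400.0 ± 24.7 in Spdef -/- samples and 997 ± 87.4 in Spdef +/+ samples (SD, n = 3 each), 2.49-fold lower (95% interval 2.12 to 2.92, adjusted p = 0.00035). Without Spdef +/+ replicate 3 its log2 difference was -1.27, against -1.32 with all arrays. Its other two tested probe sets gave 149, 156 and 122 in Spdef -/- samples against 253, 250 and 296 in Spdef +/+ samples, and 188, 193 and 162 in Spdef -/- samples against 481, 534 and 585 in Spdef +/+ samples. All 3 probe sets separated the genotypes.

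**Figure D2:**
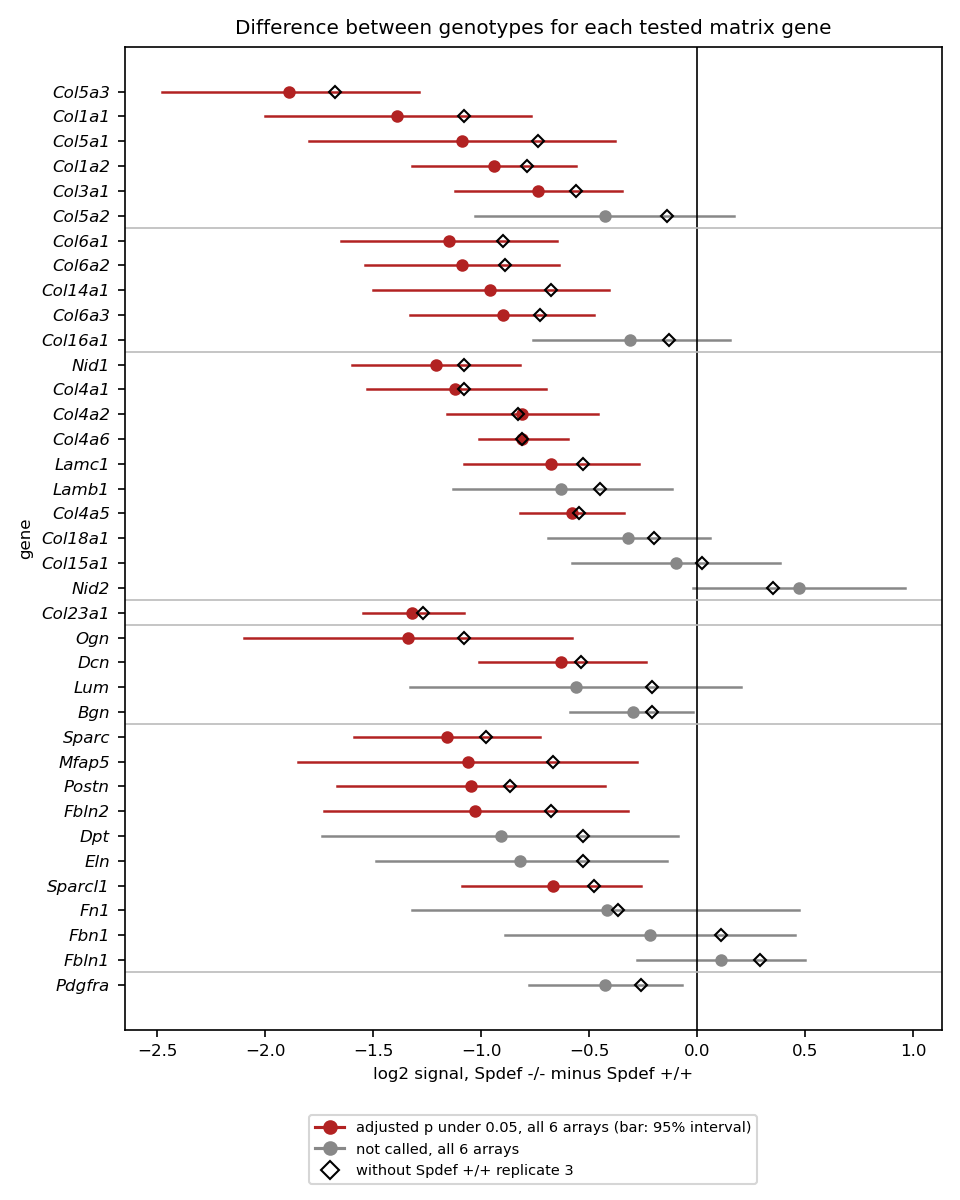
Log2 difference, Spdef -/- minus Spdef +/+, of each tested matrix gene, with its 95% interval over all 6 arrays (coloured where the adjusted p was under 0.05) and, as open diamonds, the value without Spdef +/+ replicate 3. Among called genes the diamonds sit close to the points for Col4a1, Col4a2, Col4a6 and Col23a1 and nearer to 0 for Col1a1 (-1.39 and -1.08) and Mfap5 (-1.06 and -0.67).

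Among the small leucine-rich proteoglycans, which coat collagen fibrils, 2 of 4 were lower with all arrays and 1 without Spdef +/+ replicate 3. Ogn (osteoglycin) gave 192, 236 and 117 in Spdef -/- samples, against 370, 370 and 632 in Spdef +/+ samples. The groups did not overlap, and Ogn was 2.54-fold lower (95% interval 1.5 to 4.29, adjusted p = 0.0169), with a log2 difference of -1.34, and -1.08 without Spdef +/+ replicate 3 (adjusted p = 0.0444). Dcn (decorin) gave 4623, 4922 and 3531 in Spdef -/- samples, against 5754, 6849 and 7479 in Spdef +/+ samples, and was 1.54-fold lower (95% interval 1.18 to 2.01, adjusted p = 0.022). The Dcn groups were separate, but its call was lost without Spdef +/+ replicate 2 (adjusted p = 0.066) and without replicate 3 (adjusted p = 0.068).

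Bgn (biglycan) and Lum (lumican) were not called. Bgn gave 2759, 2946 and 3230 in Spdef -/- samples, against 3235, 3630 and 4199 in Spdef +/+ samples, so its groups nearly touched (log2 -0.30, 95% interval -0.59 to -0.02, adjusted p = 0.0872). Lum gave 484, 491 and 378 in Spdef -/- samples, against 445, 603 and 1085 in Spdef +/+ samples. The groups overlapped, and the log2 difference of Lum was -0.56 with all arrays (adjusted p = 0.2) and -0.21 without Spdef +/+ replicate 3 (adjusted p = 0.429).

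Of the 10 elastic fibre and matrix glycoprotein genes 5 were lower, and 4 without Spdef +/+ replicate 3. Their median log2 difference was -0.87 with all arrays and -0.53 without that array, and the array was the highest of 6 for 9 of the 10. Sparc, a collagen-binding protein of basement membrane and stroma, gave 2333, 2565 and 2358 in Spdef -/- samples, against 4174, 5460 and 6881 in Spdef +/+ samples. The genotypes did not overlap, and Sparc was 2.23-fold lower (95% interval 1.66 to 3.01, adjusted p = 0.00382), with a log2 difference of -1.16, and -0.98 without Spdef +/+ replicate 3 (adjusted p = 0.00735). Its relative Sparcl1 gave 149, 163 and 138 in Spdef -/- samples, against 209, 209 and 311 in Spdef +/+ samples, and was 1.6-fold lower (adjusted p = 0.0227). The Sparcl1 call was lost on leaving out Spdef -/- replicate 1 (adjusted p = 0.0596), and on leaving out Spdef -/- replicate 3 (0.0587).

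Postn (periostin), a matricellular protein, gave 1770, 2194 and 1184 in Spdef -/- samples, against 3010, 3052 and 4447 in Spdef +/+ samples. Its groups were separate although Spdef -/- samples spread widely, and it was 2.07-fold lower (95% interval 1.35 to 3.18, adjusted p = 0.0197). Without Spdef +/+ replicate 3 the Postn call was lost (log2 -0.87, adjusted p = 0.0575). Fbln2 (fibulin 2) gave 144, 160 and 121 in Spdef -/- samples, against 220, 232 and 463 in Spdef +/+ samples, and was 2.04-fold lower (adjusted p = 0.0326). Mfap5, a microfibril protein, gave 203, 208 and 168 in Spdef -/- samples, against 289, 324 and 694 in Spdef +/+ samples, and was 2.09-fold lower (adjusted p = 0.0411). In both genes the groups were apart, and on the log2 scale Spdef +/+ replicate 3 lay farther above the other Spdef +/+ samples than those lay above the Spdef -/- samples. Without that array the log2 differences of Fbln2 and Mfap5 were -0.68 (adjusted p = 0.0192) and -0.67 (adjusted p = 0.0166). Leaving out 1 Spdef -/- array, whichever it was, ended the call of Fbln2 (adjusted p = 0.0742, 0.0544 and 0.0835 for replicates 1, 2 and 3) and of Mfap5 (0.0831, 0.0768 and 0.0998). The Mfap5 call was also lost without Spdef +/+ replicate 2 (0.057).

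The other 5 glycoproteins were not called. Eln (elastin) gave 242, 280 and 177 in Spdef -/- samples, against 343, 319 and 603 in Spdef +/+ samples (log2 -0.82, adjusted p = 0.0582). Dpt (dermatopontin) gave 480, 558 and 544 in Spdef -/- samples, against 614, 934 and 1700 in Spdef +/+ samples (log2 -0.91, adjusted p = 0.0757). Neither gene overlapped between genotypes, but the Spdef +/+ samples spread widely. Without Spdef +/+ replicate 3 the log2 difference was -0.53 for each (adjusted p = 0.105 for Eln and 0.0963 for Dpt). Dpt passed without Spdef +/+ replicate 1 (adjusted p = 0.0216). Fn1 (fibronectin) gave 129, 98.3 and 128 in Spdef -/- samples, against 88.5, 261 and 170 in Spdef +/+ samples, with overlap and the widest interval of these genes (log2 -0.42, 95% interval -1.32 to 0.47, adjusted p = 0.402). It too passed without Spdef +/+ replicate 1 (adjusted p = 0.0433).

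Fbln1 and Fbn1 were not called either. Fbln1 (fibulin 1) gave 849, 852 and 986 in Spdef -/- samples, against 757, 708 and 1050 in Spdef +/+ samples. The groups overlapped through Spdef +/+ replicate 3 (log2 0.11, 95% interval -0.28 to 0.50, adjusted p = 0.607), and without it the log2 difference was 0.29 (adjusted p = 0.0924). Its 2 other tested probe sets differed by 0.18 and 0.42, and the last of these passed when probe sets were tested singly (adjusted p = 0.0313). That last probe set was called Present on only 1 Spdef -/- array, where its signals were higher, and on all 3 Spdef +/+ arrays. Fbn1 (fibrillin 1) gave 246, 243 and 302 in Spdef -/- samples, against 227, 260 and 481 in Spdef +/+ samples. Its log2 difference of -0.22 (95% interval -0.89 to 0.45, adjusted p = 0.566) was 0.11 without Spdef +/+ replicate 3, and its second tested probe set differed by 0.42.

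Pdgfra, a growth factor receptor of fibroblasts and the only member that is no matrix protein, gave 430, 414 and 441 in Spdef -/- samples, against 507, 518 and 727 in Spdef +/+ samples. The groups were separate, yet Pdgfra was not called (log2 -0.43, 95% interval -0.78 to -0.07, adjusted p = 0.0604), nor was it without Spdef +/+ replicate 3 (log2 -0.26, adjusted p = 0.061).

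**Figure D3:**
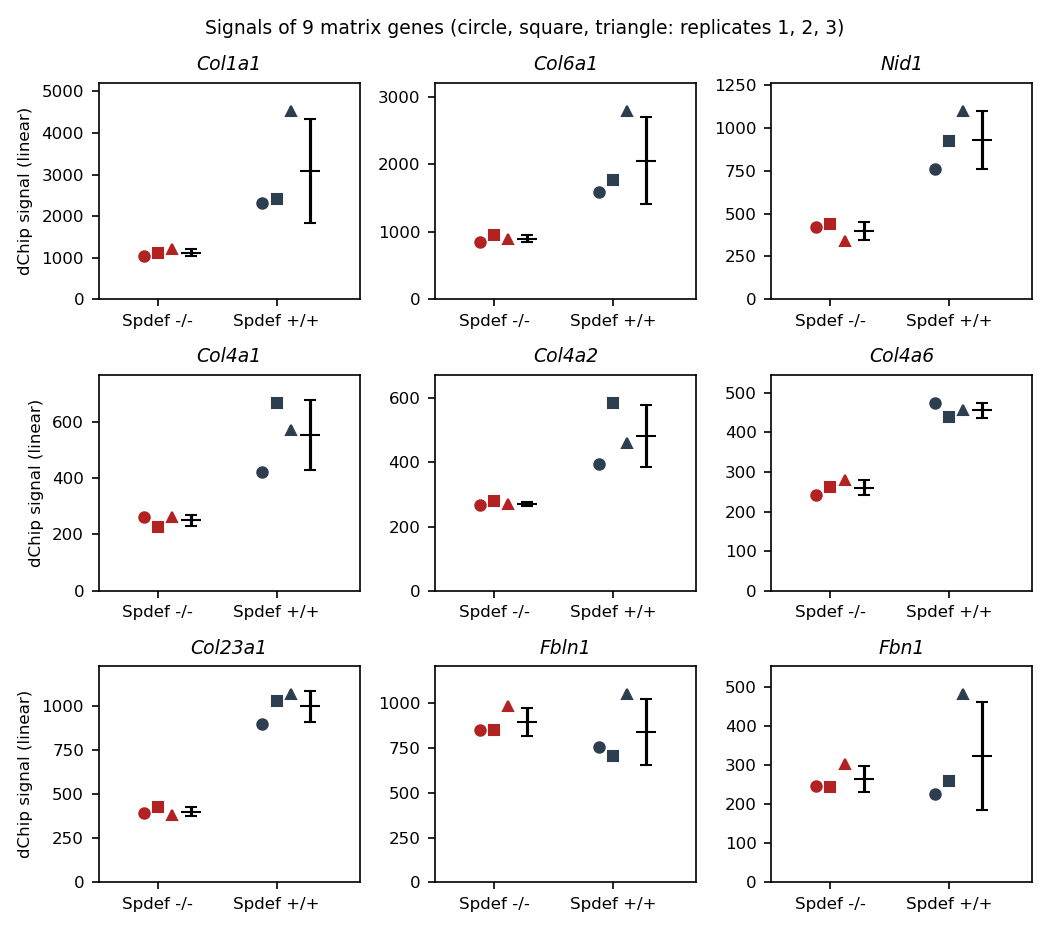
Signal of 9 matrix genes on each array, on the linear dChip scale, with Spdef -/- left of Spdef +/+ and bars for the mean ± SD of 3 samples. Col4a6 and Col23a1 show narrow groups far apart, Col1a1 and Col6a1 show separate groups with Spdef +/+ replicate 3 (triangle) highest, and Fbln1 and Fbn1 overlap.

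Of 81 probe sets of the matrix genes 61 were tested, and taken singly 35 were lower, against a background of 20.1% of all probe sets, and 1 was higher, against 13.4%. Of the 20 matrix genes measured by several tested probe sets, 18 had differences of 1 sign throughout. Fbn1 and Pdgfra had both signs. Among the genes that were lower, 4 had a tested probe set that did not pass singly. Col4a5 differed by -0.58 by its brightest probe set and by -0.16 by its second (adjusted p = 0.36), and Col4a6 by -0.81 and by -0.42 (adjusted p = 0.124). In both of these second probe sets the genotypes overlapped. The other two were Col3a1, with 1 of 3 probe sets not called (log2 -0.82, adjusted p = 0.115), and Mfap5, whose second probe set differed by -1.37 (adjusted p = 0.0903).

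Genes outside the 39 that make, modify or bind this matrix are given from lists that hold no member. The counts of each list stand beside 24.0% of all genes called lower and 15.8% called higher. Of 25 other collagens 4 were tested, and 2 were lower. Col17a1, the hemidesmosome collagen of basal epithelial cells, averaged 3408 in Spdef -/- samples and 4561 in Spdef +/+ samples (log2 -0.42, adjusted p = 0.014). Col4a4 gave 26.9, 41.7 and 38.6 in Spdef -/- samples, against 67.3, 77.2 and 171 in Spdef +/+ samples (log2 -1.45, adjusted p = 0.0218). Its groups were separate, with Spdef +/+ replicate 3 again the highest, and its call was lost without Spdef -/- replicate 1 (adjusted p = 0.0645). The 2 lower were thus 1 without that array, and 3 without Spdef -/- replicate 3. Col7a1 and Col20a1 were tested and not called, and the other 21 had no named probe set Present on 3 arrays.

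Of 30 genes that process or cross-link collagen 26 were tested, with a median log2 difference of -0.42. Among the 26, 5 were lower and 3 were higher, neither a larger share than the 24.0% and 15.8% of all genes. P3h2, a prolyl hydroxylase that modifies collagen chains, averaged 827 in Spdef -/- samples and 450.0 in Spdef +/+ samples (log2 0.88, adjusted p = 0.000863). P4hb, a subunit of prolyl 4-hydroxylase that also acts on other secreted proteins, was higher by 0.44 (adjusted p = 0.00791), while P4ha2, a catalytic subunit of the same enzyme, was lower by a log2 difference of -0.47 (adjusted p = 0.0109). Adamts2, which trims procollagen ends, was Absent on all Spdef -/- arrays and at least 2.74-fold lower there (adjusted p = 0.0264). The Adamts2 call was lost without Spdef -/- replicate 1, 2 or 3 (adjusted p = 0.071, 0.0516 and 0.0645) and without Spdef +/+ replicate 2 (0.0593). The count of 5 lower was 2 without Spdef -/- replicate 1 or Spdef +/+ replicate 2, and 3 without Spdef -/- replicate 2 or Spdef +/+ replicate 3.

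Of 23 matrix receptors 17 were tested, with 7 lower, 3 higher and a median of -0.32. Cd44, the hyaluronan receptor, gave 3594, 3568 and 4145 in Spdef -/- samples, against 1163, 1506 and 1361 in Spdef +/+ samples, 2.81-fold higher (adjusted p = 0.000488). Itgb6, an integrin chain of epithelia, was 1.99-fold higher (adjusted p = 0.00348). Sdc2, a syndecan, was 1.94-fold lower (adjusted p = 0.00127), and Ddr1, a collagen receptor kinase of epithelial cells, 1.53-fold lower (adjusted p = 0.00732). The 3 receptors that were higher stayed 3 in number in every fit that left out 1 array, and the 7 lower became 4 without Spdef +/+ replicate 1.

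Of 16 other basement membrane genes 11 were tested, 9 were lower and 0 higher, with a median of -0.39. Frem2, a protein that anchors epithelium to its basement membrane, gave 34.1, 43.8 and 39 in Spdef -/- samples, called Marginal, Absent and Marginal, against 153, 114 and 142 in Spdef +/+ samples. It was at least 3.49-fold lower (adjusted p = 0.000461). Smoc2 was 2.51-fold lower (adjusted p = 0.00181), Lama2 2.61-fold lower (adjusted p = 0.00784) and Agrn (agrin) 1.38-fold lower (adjusted p = 0.00632). The laminin chains Lama3, Lama5, Lamb2 and Lamb3 were also lower, with log2 differences of -0.44 to -0.37. The count of 9 was 5 without Spdef +/+ replicate 1, 6 without Spdef +/+ replicate 3, and 6 to 8 without any other 1 array.

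Of 27 other matrix proteoglycans and glycoproteins 21 were tested, with 7 lower, 2 higher and a median of -0.70. Mean log2 signals of the 21 were 7.36 to 7.54 on the Spdef -/- arrays. They were 7.62, 7.75 and 8.28 on Spdef +/+ replicates 1, 2 and 3. Ecm1, a matrix protein of skin and other stratified epithelia, gave 4939, 4073 and 3907 in Spdef -/- samples, against 1066, 1168 and 1111 in Spdef +/+ samples. Far from overlapping, it was 3.84-fold higher (adjusted p = 0.000152). Ltbp1, which binds latent TGF-beta, was 2.01-fold higher (adjusted p = 0.0101). Mfap4, a microfibril-associated protein, was 2.47-fold lower (adjusted p = 0.00186), and Efemp1 (fibulin 3) 1.44-fold lower (adjusted p = 0.00559). The 7 lower were 3 without Spdef +/+ replicate 3 and 4 without Spdef +/+ replicate 2.

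Markers of the cell types that the captured sections could hold are given with the matrix genes, and their part in the result was not tested. Their counts too stand beside 24.0% of all genes called lower and 15.8% called higher. The 20 fibroblast markers outside the matrix list summed to between 17012 and 18639 on the Spdef -/- arrays and between 17696 and 24436 on the Spdef +/+ arrays, the top of that range in replicate 3. Of these 20, 2 were lower (Dpp4, log2 -0.58, and Igfbp6, -1.27) and 3 were higher (S100a4, 0.89, C1s1, 0.74, and Lsp1). The median of the 20 was -0.43, and it was not computed without Spdef +/+ replicate 3. Mean log2 signals of these markers were 8.12 to 8.14 on the Spdef -/- arrays. They were 8.16, 8.37 and 8.89 on Spdef +/+ replicates 1, 2 and 3. Leaving out 1 array gave 1 to 3 lower and 0 to 2 higher, with 0 higher without Spdef -/- replicate 1 or Spdef +/+ replicate 2, and 1 lower without Spdef -/- replicate 1 or Spdef +/+ replicate 3. The calls of Dpp4, S100a4, Igfbp6 and C1s1 were each lost in at least 1 of these fits. Spdef +/+ replicate 3 exceeded the other Spdef +/+ samples by a median of 0.51 on the log2 scale for these markers, against 0.53 for the matrix genes. The 12 epithelial markers summed to between 104014 and 114325 on the Spdef -/- arrays and between 94312 and 96287 on the Spdef +/+ arrays. Of these 12, 5 were higher (Krt14, log2 0.65, Krt13, 1.06, Krt4, 0.47, Krt19, 0.35, and Krt5, 0.21) and 1 was lower (Krt18, -1.58). The count of higher epithelial markers was 4 without Spdef -/- replicate 3 and 3 without any other 1 array.

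Of 8 goblet cell markers 7 were tested and all 7 were lower, with sums of 3051 to 4772 in Spdef -/- samples and 34360 to 41325 in Spdef +/+ samples. Spdef, whose loss defines the genotype, is 1 of the 7. Endothelial markers (11 of 12 tested) had 2 lower (Cldn5, log2 -1.01, and Kdr, -0.46) and 2 higher (Vwf, 1.05, and Plvap, 0.92). Their median was -0.12, with summed signals of 1278 to 1450 in Spdef -/- samples and 1122 to 1477 in Spdef +/+ samples. Pecam1, a defining endothelial gene, had no named probe set Present on 3 arrays. Pericyte and smooth muscle markers (6 of 10 tested) had 1 lower (Abcc9, log2 -0.73), with sums of 2186 to 2483 in Spdef -/- samples and 2475 to 4995 in Spdef +/+ samples. Their median excess in Spdef +/+ replicate 3 was 0.68. Macrophage markers (9 of 10 tested) had 1 lower (Cd163, -0.93), a median of 0.04, and sums of 3683 to 4552 in Spdef -/- samples and 3080 to 4936 in Spdef +/+ samples.

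Of 10 skeletal muscle markers 4 were tested and 1 was higher (Tnni2, log2 0.90), with sums of 339 to 379 in Spdef -/- samples and 230 to 554 in Spdef +/+ samples. The median excess of these 4 in Spdef +/+ replicate 3 was 1.26 on the log2 scale. Of 8 Schwann cell markers 4 were tested and 2 were lower, with Pmp22 at a log2 difference of -1.07 and sums of 3512 to 3977 in Spdef -/- samples and 4147 to 4365 in Spdef +/+ samples. Of 6 melanocyte markers 3 were tested and 1 was lower (Dct, -1.18), with sums of 202 to 271 in Spdef -/- samples and 226 to 370 in Spdef +/+ samples. Of 6 corneal keratocyte markers 3 were tested, and Aldh1a1, which stratified epithelia also express, was lower by a log2 difference of -3.74, while Kera, Ptgds and Angptl7 were not tested. Keratocyte sums were 10726 to 13894 in Spdef -/- samples and 21453 to 23814 in Spdef +/+ samples. Most of that difference was Aldh1a1, which averaged 653 in Spdef -/- samples and 8576 in Spdef +/+ samples. Aldh3a1 averaged 11435 and 14164 and was not called (adjusted p = 0.0535), nor was Thbd (log2 0.30). Leaving out 1 array gave 1 to 3 lower endothelial markers, 1 or 2 lower Schwann cell markers and 0 or 1 lower melanocyte markers. The calls of Kdr, Pmp22 and Dct were each lost in 3 or more of the fits that left out 1 array.

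**Figure D4:**
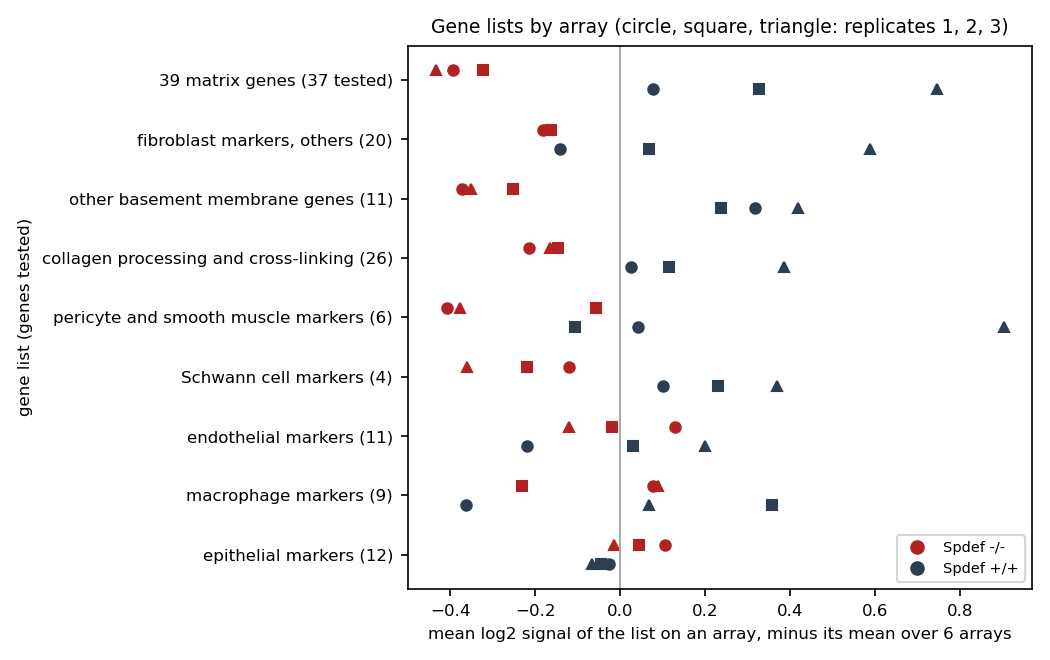
Mean log2 signal of the matrix genes and of other lists on each array, minus the list's mean over the 6 arrays. The other lists shown are the fibroblast, other basement membrane, collagen processing, pericyte and smooth muscle, Schwann cell, endothelial, macrophage and epithelial lists. Spdef -/- and Spdef +/+ have different colours, and the replicates are circle, square and triangle. The matrix genes run at mean log2 signals of 8.63 to 8.74 on the Spdef -/- arrays and 9.14 to 9.81 on the Spdef +/+ arrays. Spdef +/+ replicate 3 is also the highest array of each other list shown except the macrophage and epithelial markers.

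None of the 39 genes is in the authors' deposited table of 153 probe sets. The table kept probe sets with a lower bound of the fold over 3, and its name also gives a p-value limit. The authors' deposited table lists 1 other collagen, Col20a1, with a fold of -5.08 and a lower bound of -3.25 (unadjusted p = 0.001966). It also lists Ecm1, with a fold of 3.87 and a lower bound of 3.31 (unadjusted p = 0.008076). The Col20a1 probe set in that table gave 14.7, 20.5 and 9.67 in Spdef -/- samples, called Absent, against 66.0, 81.2 and 73.0 in Spdef +/+ samples, at least 5.12-fold lower (adjusted p = 0.00153 with probe sets tested singly). The brightest tested Col20a1 probe set gave 66.3, 68.8 and 77.9 in Spdef -/- samples, against 74.1, 72.8 and 78.4 in Spdef +/+ samples. It overlapped between genotypes (log2 -0.08, adjusted p = 0.538), so the probe sets of Col20a1 disagreed.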

How the data were processed

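Total RNA from laser-captured conjunctival epithelium of 3 Spdef -/- and 3 Spdef +/+ samples was measured, with groups taken from the sample titles. The titles call the samples biological replicates. The sources used here do not say whether samples share an animal through its other eye, and p-values measure the spread between these samples. The deposited values are intensity values that the authors modelled with dChip, a linear signal for every probe set on every array, and a second deposited table had 0 differing values. The sources used here do not give how dChip normalized them or treated background. The deposited Present, Marginal and Absent detection calls are of another kind, with no unit. The authors' deposited comparison table holds score values (signed folds and their lower bounds) and a p-value for 153 probe sets. They were selected, per the file headers, by a lower bound of the fold over 3, and the name of the table also gives a p-value limit.

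Of 45101 probe sets, 36239 took a symbol by gene ID from the mouse gene table of GRCm38.p6, 609 by the 1 of several IDs in that table, and 61 by accession. The rest matched several genes (585) or none (7543), or were controls (64). A floor of 1 was set on the signals before log2. Probe sets Present on at least 3 arrays were tested, the brightest per gene, using lmFit and eBayes of limma 3.58.1 (R 4.3.3), 2-sided, Benjamini-Hochberg over 11899 genes, threshold 0.05. The median residual SD was 0.139 (log2), and precision is limited by the number of arrays. The fit was tested on simulated data. Where no array of a group called the probe set Present, a fold was also taken against the higher of its signal and the lowest Present signal of the array. This lowered the fold of Spdef and left those of Adamts2, Frem2 and Col20a1 as estimated. All 39 matrix genes are named, with Spdef and up to 4 called genes of each other list by smallest p (if none was called, the 2 brightest). Lsp1, Krt5, Krt19, the 4 laminin chains of the basement membrane list, Col7a1 and Col20a1, and the untested markers were named after their values were seen. Some called genes of the lists are not reported here. The matrix genes and the lists were chosen with earlier results of these data known. Alternatives were the detection filter, scaling, floor, variance model (statmod 1.5.0), replicate block, choice of probe set and leaving out each array.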

Additional observations from a re-analysis of the deposited data

How the results depend on the processing

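Of 697 values of the matrix genes under the alternatives, 636 kept their direction and side of the threshold, 40 were no longer past it, 18 newly passed it and 3 turned sign. These 3 were Col15a1 at 0.02 and Fbn1 at 0.11, both without Spdef +/+ replicate 3, and Fbn1 at 0.10 as the mean of its probe sets. Leaving out other arrays took Col15a1 as low as -0.29 and Fbn1 as low as -0.43. The 23 lower matrix genes became 15 of 39 with no detection filter, against 2004 of 18096 over all genes. The 23 became 35 of 61 with probe sets tested singly, and 18 to 27 when 1 array was left out. No matrix gene was higher (0 at an unadjusted p under 0.05) except 1 probe set, of Fbln1, tested singly. Centring on array medians, a floor of 16, and centring on 18 bacterial spike controls each gave 23 lower, and eBayes with trend and robust gave 27. Over all genes the 1878 higher and 2850 lower became 682 and 1417 under centring on bacterial spike controls, which moved the median log2 difference of all genes by -0.09, to -0.15, and 2908 and 4361 with probe sets tested singly. Leaving out 1 array gave 1277 to 1825 higher and 1850 to 2734 lower, the lowest of each without Spdef +/+ replicate 1. The median of the matrix genes lay between -0.94 and -0.56 when 1 array was left out. The cause of these changes was not tested, except that probe sets taken singly and no filter change how many features are tested. Leaving unnamed the probe sets that carry several gene IDs, an alternative chosen after seeing the data, gave 22 of 36 lower.

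The replicate numbers did not pair the arrays: same-numbered arrays had correlations of their deviations of -0.013, -0.09 and -0.084. With the replicate number as a block, 16 matrix genes were lower and 0 higher, with a median of -0.81, and 1473 genes were higher and 2200 lower over all.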
